A study of Mus musculus with 18 samples.

Results

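Regulatory T (Treg) cells that carried the A384T substitution in the transcription factor Foxp3 were compared with Treg cells that carried the I363V substitution, across all measured genes. The comparison used 6 of the 18 arrays of the study, 3 titled A384T Treg and 3 titled I363V Treg, chosen by those titles. A384T Treg cells were the hCD2+ CD4+ cells of heterozygous mice with A384T and an hCD2 reporter on one Foxp3 allele and wild-type Foxp3 with a GFP reporter on the other. I363V Treg cells were the hCD2+ CD4+ cells of heterozygous mice with I363V and the hCD2 reporter on one allele and the same wild-type GFP allele on the other. Both groups therefore shared the hCD2 reporter and the presence of wild-type GFP+ Treg cells in the same animal. Cells were sorted out of lymph nodes and spleen, the mice were of B6;129 background, and no treatment was given before RNA was extracted. The labels give no age for the mice.

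The other 12 arrays served as points of comparison. These were 3 arrays of R397W Treg cells, sorted the same way from mice with another substitution, 3 of wild-type GFP+ Treg cells from the A384T mice, 2 of wild-type hCD2+ and 2 of wild-type GFP+ Treg cells from mice with both alleles wild type, and 2 of conventional CD4 T cells (Tconv), negative for both reporters, from those wild-type mice. No GFP+ cells of the I363V mice were analysed here, so for I363V the allele and the mouse the cells came from cannot be told apart. The labels do not say whether replicates came from separate animals, so p-values measure only the spread between these arrays, which may be technical.

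Foxp3 is the lineage factor of Treg cells and binds DNA through a forkhead domain at its C-terminal end. It acts together with partner proteins, activating some genes and restraining others, such as the interleukin-2 gene, that conventional T cells use. The gene is X-linked, so in a heterozygous female each cell uses one allele, and the reporter on that allele marks which. Loss of function in people causes IPEX, a multi-organ autoimmune disease, and the 3 substitutions compared here lie in the forkhead domain.

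Each value below is a log2 expression value that the deposited data set against the average Tconv array, so 0 is the Tconv level and values of different genes cannot be ranked against each other. Differences are A384T minus I363V on the log2 scale with the standard error (SE) of a limma fit of all 18 arrays, and a gene was called at an adjusted p under 0.05 over 18193 genes. The median of all genes on an array lay between -0.0626 and 0.0164. Among the A384T and I363V arrays, A384T array 2 stood apart for neutrophil markers and I363V array 2 for early activation genes. Values are given beside those genes, with counts without each array. In these sorted populations fewer cells of a type and less RNA per cell cannot be told apart.

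Foxp3 itself was present at Treg level in both groups. The A384T arrays read 7.22, 7.53 and 7.26, against 6.95, 7.11 and 6.51 on the I363V arrays. Every A384T array lay above every I363V array, but the difference of 0.48 ± 0.17 was not called (adjusted p = 0.345). Wild-type hCD2+ Treg cells read 7.33 and 7.06, and wild-type Treg cells exceeded Tconv by 7.23 ± 0.18. The arrays measure the transcript and not the substitution, so they do not check which allele a library carried. Batf, a basic leucine zipper factor of effector and tissue Treg cells, read -0.41, 0.18 and -0.04 in A384T and 0.41, 0.09 and 0.70 in I363V Treg cells. The groups overlapped, and the difference of -0.49 ± 0.24 was not called (adjusted p = 0.597). Wild-type hCD2+ Treg cells read 1.14 and 1.18 for Batf, above every array of both groups. Against them A384T differed by -1.25 ± 0.27 (adjusted p = 0.0807) and I363V by -0.76 ± 0.27 (adjusted p = 0.317), neither called.

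A384T Treg cells had higher expression of 161 genes (0.885% of those tested) and lower expression of 46 genes (0.253%) than I363V Treg cells. Counts of called genes in the lists below stand beside these shares. Lists that hold Matn2, Sytl4, Myo6 or Rnf144a were drawn up with earlier results of these data known. The calls of those genes are therefore no result about the lists. At an unadjusted p under 0.05 the counts of higher and lower genes were 852 and 721. Without any difference, a share of about 0.05 of all genes would pass that threshold, both directions together. The 161 higher genes had a median difference of 1.06 and ranged between 0.40 and 2.92, and 90 of them reached a difference of 1. The 46 lower genes had a median of -1.13 and reached -3.32, and 27 of them lay at or beyond -1. Groups did not overlap for any of the 207 called genes, while 15.9% of all genes had arrays that did not overlap. Lack of overlap was also a condition for the 15 most positive and 15 most negative differences, so it adds nothing to their calls. Just inside the threshold stood Dip2c, with an adjusted p of 0.0498 and a difference of 0.43, and Rasip1, with 0.0495 and 0.64. Just outside stood Dsp, with 0.0502 and -1.29, and Plp2, with 0.0512 and 0.60. The counts rested on all 6 arrays. The number of higher genes was 92 without A384T array 2, 102 without I363V array 1 and 95 without I363V array 3. The number of lower genes was 21, 25 and 29 without A384T array 1, 2 or 3 in turn, and 29 without I363V array 2.

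**Figure D1:**
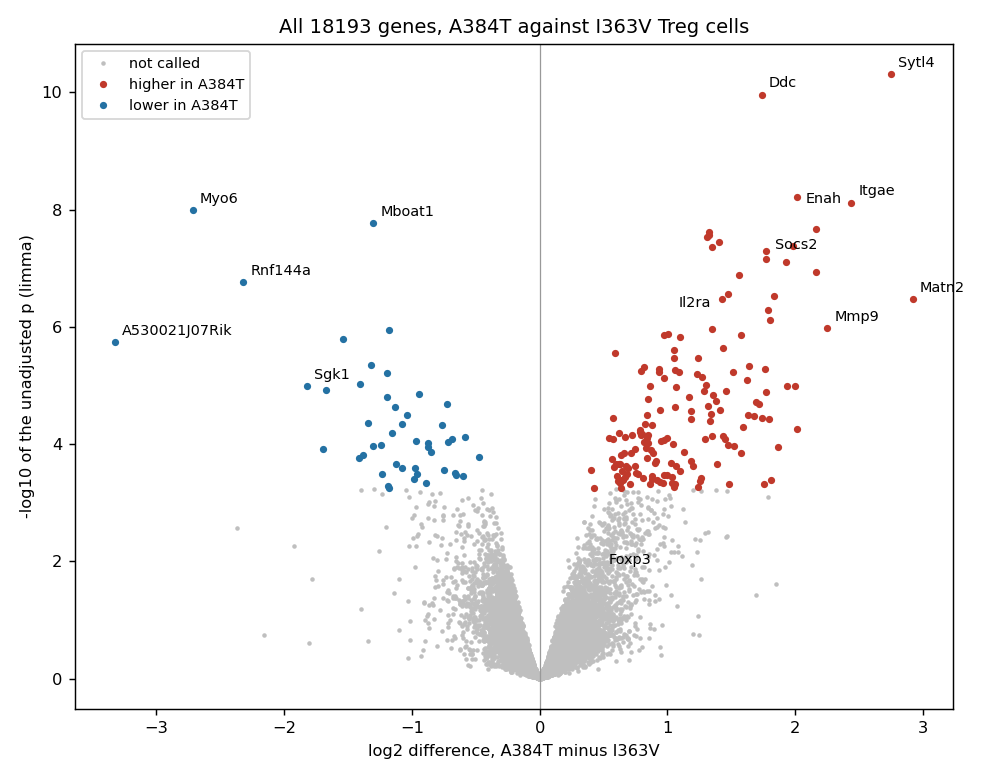
Each point is 1 of 18193 genes, with the log2 difference A384T minus I363V on the x axis and -log10 of the unadjusted limma p on the y axis. The 161 genes called higher in A384T (red) outnumber the 46 called lower (blue), and Matn2, Sytl4, Itgae, Myo6 and Rnf144a lie far from 0.

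Genes of cell adhesion and the extracellular matrix held the most positive difference. Matn2, which encodes the matrix adaptor matrilin-2, read 3.14, 3.74 and 3.59 on the A384T arrays, against 0.67, 0.68 and 0.37 on the I363V arrays. The 3 A384T arrays were all far above the 3 I363V arrays, and the difference of 2.92 ± 0.33 (7.57-fold, adjusted p = 0.00027) was called. A second Matn2 probe set differed by 2.26. Itgae, the integrin chain CD103 that binds E-cadherin, read 4.78, 4.59 and 5.08 in A384T and 2.41, 2.53 and 2.19 in I363V Treg cells. All A384T values exceeded 4.5 and no I363V value reached 2.6 (difference 2.44 ± 0.20, 5.42-fold, adjusted p = 3.44e-05), with a second probe set at 2.31. Mmp9, a secreted gelatinase, read 1.88, 1.92 and 1.85 against -0.24, -0.17 and -0.69. Its A384T arrays stood above the Tconv mean and its I363V arrays below it (difference 2.25 ± 0.28, adjusted p = 0.000723). The Tconv arrays read -0.19 and 0.19, so I363V array 2 lay within their range. Among 19 measured matrilins and matrix adhesion genes, Matn2 and Itgae were the 2 called, both higher, beside 0.885% of all genes. The median difference of the list was -0.02, beside -0.00 for all genes.

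Sytl4, granuphilin, a Rab27 effector that docks secretory granules at the plasma membrane, separated the groups most sharply for its spread. It read 2.60, 3.07 and 2.94 in A384T Treg cells, against 0.14, 0.15 and 0.06 in I363V Treg cells. Expression in I363V stayed close to the Tconv level, and the difference was 2.75 ± 0.16 (6.74-fold, adjusted p = 8.9e-07). The other Sytl4 probe set differed by 0.17 ± 0.13 and was not called, so the result rests on 1 probe set. Exph5, another Rab27 effector, read 0.73, 0.55 and 0.92 against -0.07, -0.14 and -0.06 (difference 0.82 ± 0.12, adjusted p = 0.00209). Sytl4 and Exph5 were the 2 called genes among 13 measured synaptotagmin-like and Rab27 genes, both higher, beside 0.885% of all genes. The median difference of the list was 0.27. Nkg7, a membrane protein of cytotoxic granules, read 0.78, 1.74 and 0.96 against -0.73, -0.91 and -0.93, with every A384T array higher (difference 2.01 ± 0.36, adjusted p = 0.0106). Without A384T array 2 its adjusted p was 0.0674.

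Cytoskeletal genes were the next group. Enah, an Ena/VASP protein that promotes actin filament elongation, read 2.62, 2.28 and 2.18 in A384T Treg cells and 0.26, 0.40 and 0.38 in I363V Treg cells. The groups were far apart on this probe set (difference 2.01 ± 0.17, adjusted p = 3.44e-05), while of 5 other Enah probe sets 2 were called, at 0.45 and 0.65, and 3 lay between -0.15 and -0.01. Tubb2b, a beta-tubulin, read 1.68, 1.87 and 1.77 against -0.28, 0.15 and 0.08 (difference 1.79 ± 0.21, adjusted p = 0.000398). Its A384T arrays were the high ones and its I363V arrays lay around the Tconv level. The related Tubb2a rose by 1.03 ± 0.22 (adjusted p = 0.0368), and its adjusted p reached 0.168 when single arrays were left out, with the call lost without any one of A384T arrays 1, 2 and 3 and I363V arrays 1 and 3. Tubb2a and Tubb2b are close relatives, and how far their probe sets share signal was not tested. Dst, a plakin that links cytoskeletal filaments, rose by 0.93 ± 0.13 (adjusted p = 0.0022). These 4 were the called genes among 21 tubulins and cytoskeletal genes, all higher, beside 0.885% of all genes. The list median was 0.09. The other probe set of Tubb2a differed by 0.22 and the 3 others of Dst by 0.11 to 0.47, none of them called.

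Camk2n1, an inhibitor of the calcium/calmodulin-dependent kinase CaMKII, read 3.78, 3.18 and 3.41 in A384T and 1.24, 1.28 and 1.35 in I363V Treg cells (difference 2.17 ± 0.20, adjusted p = 5.32e-05). Every A384T array exceeded 3 and no I363V array exceeded 1.4, while a second Camk2n1 probe set differed by 0.36 and was not called. Ryr2, a calcium release channel of the endoplasmic reticulum, read 2.97, 3.25 and 3.03 against 1.17, 1.61 and 0.96. The groups did not overlap (difference 1.84 ± 0.20, adjusted p = 0.000262), but a second Ryr2 probe set differed by -0.05. Ttn, the giant sarcomere protein titin, differed by 1.81 ± 0.40 (adjusted p = 0.0395), and leaving out any single one of the 6 arrays gave an adjusted p between 0.0761 and 0.160. Of 5 other Ttn probe sets 1 was called, at 1.26, and 4 lay between -0.25 and 0.03.

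Transcription factors, enzymes and adaptors completed the 15 most positive differences. Plagl1, a zinc finger factor, read 5.43, 5.44 and 5.0 against 2.69, 4.36 and 3.22, with I363V array 2 the nearest to A384T (difference 1.87 ± 0.36, adjusted p = 0.0159). Its call was lost without A384T array 1 or 2 or I363V array 1 or 3, at adjusted p between 0.0742 and 0.0875. Sp6, an SP-family factor, rose by 1.99 ± 0.19 (adjusted p = 5.97e-05), while its 3 other probe sets lay between -0.05 and 0.48 and were not called. Fah, the last enzyme of tyrosine breakdown, read 2.59, 3.15 and 2.11 against 0.24, 0.75 and 0.36, without overlap (difference 2.17 ± 0.22, adjusted p = 0.000123). Asb2, a substrate adaptor of a ubiquitin ligase, read 0.78, 0.76 and 1.11 against -1.02, -0.80 and -1.54. It lay above the Tconv level in A384T and below it in I363V Treg cells (difference 2.0 ± 0.30, adjusted p = 0.00312). Arrdc4, an alpha-arrestin, rose by 1.94 ± 0.29 (adjusted p = 0.00312) and 6330403K07Rik, for which no role is given here, by 1.93 ± 0.19 (adjusted p = 9e-05).

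Among lower genes, Myo6 was prominent. It encodes myosin VI, the motor that walks toward the minus end of actin filaments. It read -0.72, -0.94 and -0.85 in A384T Treg cells, against 1.86, 2.06 and 1.73 in I363V Treg cells. A384T lay below the Tconv level and I363V above it, a difference of -2.72 ± 0.23 (6.58-fold lower, adjusted p = 3.65e-05). Of its other probe sets, 1 was called at -1.94 and 1 was not, at -0.68. Myo6 was the only called gene among 22 measured unconventional myosins, whose median difference was 0.06. Over all genes 0.885% were called higher and 0.253% lower. Rnf144a, a RING-between-RING ubiquitin ligase, read -2.19, -1.78 and -1.73 in A384T and 0.56, 0.14 and 0.55 in I363V Treg cells. The sign again differed between the groups on every array (difference -2.32 ± 0.25, 4.99-fold lower, adjusted p = 0.000167), with other probe sets at -1.0, called, and -0.34, not called. Rnf144a was the only called gene among 15 RING-between-RING and other E3 ligase genes (list median -0.02), beside the same shares over all genes.

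The most negative difference was that of A530021J07Rik, for which no role is given here. It read -3.16, -2.13 and -2.25 in A384T Treg cells, against 0.80, 0.75 and 0.90 in I363V Treg cells (difference -3.32 ± 0.43, adjusted p = 0.000963), with a second probe set at -2.86. Sgk1, a serum- and glucocorticoid-regulated kinase that favours Th17 differentiation, read -2.33, -3.18 and -2.35 against -1.18, -0.49 and -0.73. All A384T arrays were lower (difference -1.82 ± 0.28, adjusted p = 0.00312). Il1rl2, the receptor chain for interleukin-36, fell by 1.54 (SE 0.20, adjusted p = 0.00088), although its second probe set differed by -0.17 and was not called. Mboat1, a lysophospholipid acyltransferase, read -1.36, -1.48 and -1.20 in A384T and -0.03, 0.12 and -0.23 in I363V Treg cells. The I363V arrays lay near the Tconv level and the A384T arrays below it (difference -1.30 ± 0.12, adjusted p = 5.11e-05).

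Mettl23, a methyltransferase, read 0.14, -0.04 and 0.71 in A384T and 1.69, 2.18 and 1.97 in I363V Treg cells (difference -1.67 ± 0.26, adjusted p = 0.00352). Here the I363V arrays stood apart from those of all other groups, yet the 2 other Mettl23 probe sets differed by 0.31 and 0.40, in the other direction, and the mean over its probe sets differed by -0.32 and was not called (adjusted p = 0.496). Calls that depended on single arrays were those of Pxylp1, a phosphatase of proteoglycan synthesis (-1.70 ± 0.32), Epas1, the hypoxia-inducible factor HIF-2 alpha (-1.41 ± 0.28), Cnga1, a cyclic nucleotide-gated channel subunit (-1.38 ± 0.27), Afp, alpha-fetoprotein (-1.30 ± 0.25), and Slc16a5, of the monocarboxylate transporter family (-1.24 ± 0.23). Their adjusted p in the main comparison lay between 0.015 and 0.0217. For each, leaving out some single array gave an adjusted p above 0.05, the highest being 0.110 for Epas1 without A384T array 2. For Pxylp1 and Epas1 these arrays were A384T 1 and 2 and I363V 1 and 2. For Cnga1 they were all but I363V array 3, for Afp all but A384T array 2, and for Slc16a5 A384T arrays 1 and 2 and I363V array 1. The second probe sets of Epas1 and Slc16a5 differed by -0.25 and -0.30 and were not called.

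**Figure D2:**
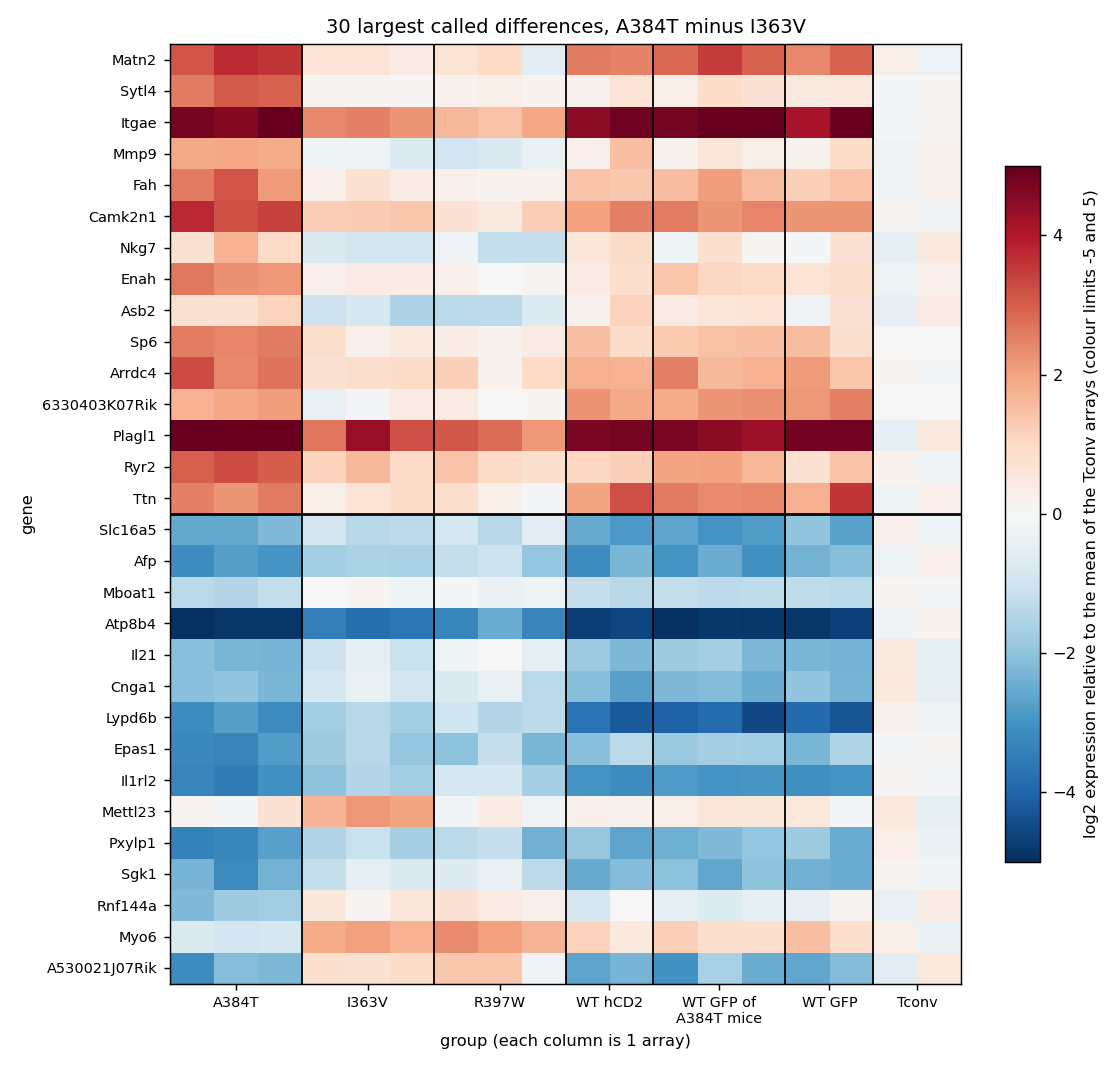
Log2 expression relative to the Tconv mean (colour) of the 15 most positive and 15 most negative called differences between A384T and I363V, with 1 column for each of 18 arrays. Sytl4 is high only on the 3 A384T arrays, whereas Itgae and Matn2 are high in A384T and in all wild-type Treg groups and A530021J07Rik is low in them.

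Genes that mark Treg cells were largely on the higher side in A384T. Of 26 measured Treg core genes 9 rose and none fell, with a median difference of 0.97, beside 161 higher of 18193 genes and a median of -0.00. Il2ra, the alpha chain CD25 of the interleukin-2 receptor, read 6.0, 6.06 and 6.30 in A384T and 4.96, 4.80 and 4.32 in I363V Treg cells. The groups did not overlap (difference 1.43 ± 0.16, adjusted p = 0.00027). Socs2, a suppressor of cytokine signalling induced through STAT5, read 5.92, 5.83 and 5.68 against 4.11, 4.12 and 3.89, again without overlap (difference 1.77 ± 0.17, adjusted p = 6.68e-05), and 4 of its 5 other probe sets were called higher. Penk, the precursor of enkephalin peptides, read 2.35, 2.72 and 2.45 against 1.07, 0.79 and 0.34, with every A384T array higher (difference 1.77 ± 0.27, adjusted p = 0.00364). Ebi3, a subunit of interleukin-27 and interleukin-35, rose by 1.44 ± 0.26 (adjusted p = 0.0124), a call lost without A384T array 2 (adjusted p = 0.0801) or I363V array 3 (0.0640). Itgae and Plagl1, described above, and Cd83, Capg and Entpd1 were the other called members. The identity markers Ctla4 (0.50, adjusted p = 0.52), Ikzf2 (0.43, adjusted p = 0.296) and Tnfrsf18 (0.85, adjusted p = 0.157) were not called. Differences were positive for 25 of the 26 members, Nrn1 being the exception at -0.59 (not called).

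Genes listed as lower in Treg cells than in Tconv mostly moved the other way. This list and the Treg core list were drawn up with earlier results of these data known. Of 18 measured genes 6 were called lower and none higher, with a median difference of -0.61, beside 46 lower of 18193 genes and a median of -0.00. Differences were positive for 3 of the 18, among them Ptpn13, which read above the Tconv level on all 6 arrays (0.60 ± 0.22, not called). Atp8b4, a phospholipid-transporting ATPase, read -5.07, -4.86 and -4.85 in A384T and -3.40, -3.78 and -3.63 in I363V Treg cells. Both groups lay far below Tconv, A384T further (difference -1.32 ± 0.19, adjusted p = 0.00205), while a second Atp8b4 probe set differed by -0.32 and was not called. Lypd6b, a Ly6-domain protein, read -3.15, -2.77 and -3.14 against -1.74, -1.39 and -1.71, without overlap (difference -1.41 ± 0.21, adjusted p = 0.00312). Il2, the interleukin-2 gene that Foxp3 restrains, read -0.77, -0.89 and -0.76 against -0.44, -0.34 and -0.23. The A384T arrays were the lower ones, by a small margin of -0.47 ± 0.09 (adjusted p = 0.0208). Id2, an inhibitor of E proteins, fell by 1.23 (SE 0.26), Themis, a regulator of T cell receptor signalling, by 1.12 (SE 0.23) and Sox4, an HMG-box factor, by 0.98 (SE 0.21), with adjusted p between 0.0258 and 0.0389. The last 4 calls were not stable to single arrays. The highest adjusted p was 0.118 for Il2 (without I363V array 3), 0.161 for Id2 (without I363V array 3), 0.145 for Themis (without A384T array 2) and 0.169 for Sox4 (without A384T array 1 or I363V array 2). Il2 and Id2 lost the call without any array but I363V 1, Themis without A384T 1 or 2 or I363V 2 or 3, and Sox4 without any array but I363V 3. For Sox4 the mean of all its probe sets differed by -0.29 (adjusted p = 0.275) and for Id2 by -0.61 (adjusted p = 0.122).

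**Figure D3:**
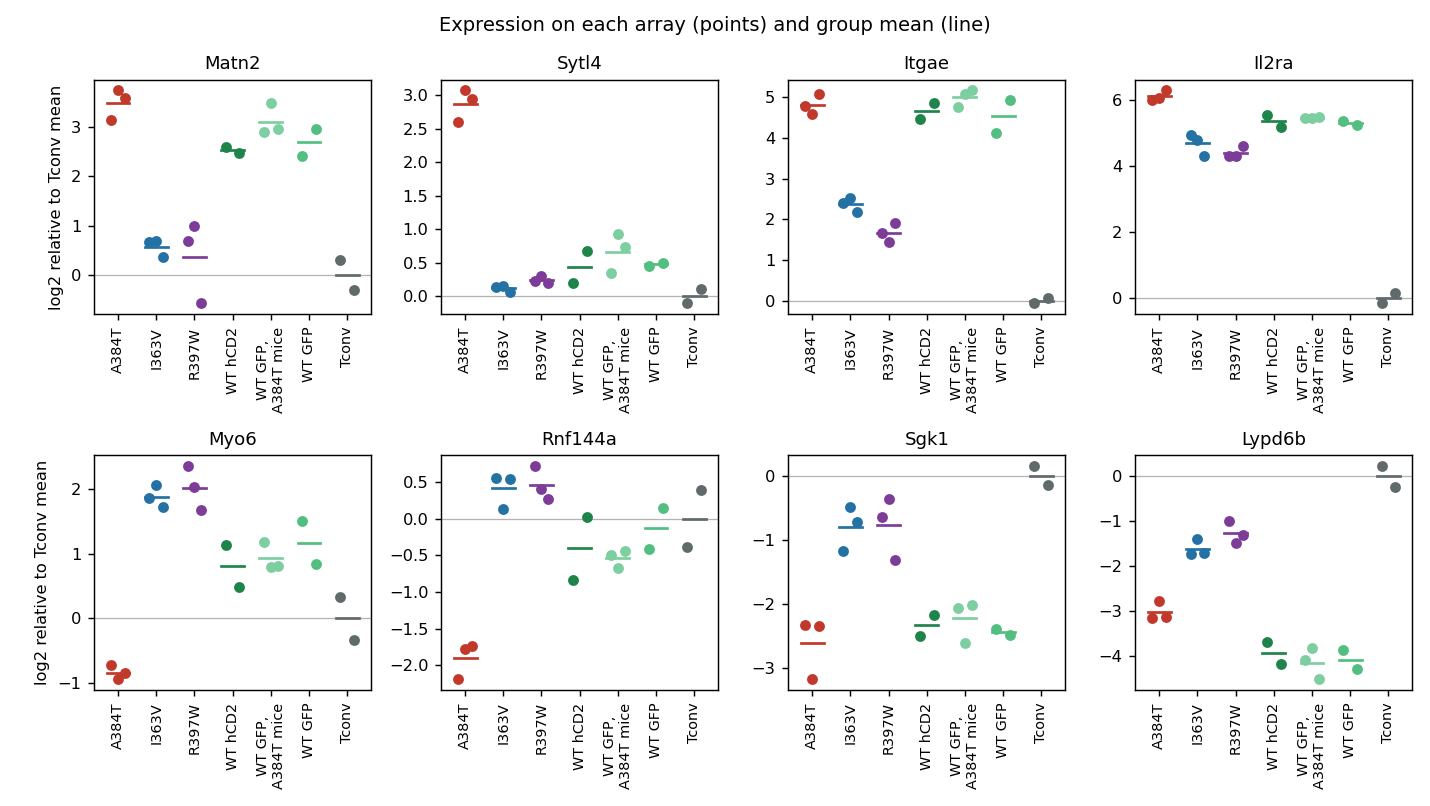
Each point is 1 array and each line a group mean, with log2 expression relative to the Tconv mean on the y axis and the groups on the x axis. A384T lies above I363V for Matn2, Sytl4, Itgae and Il2ra and below it for Myo6, Rnf144a, Sgk1 and Lypd6b. These 8 genes do not overlap, as held for all 207 called genes.

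Suppressive and effector genes showed fewer calls, to be set beside 0.885% of all genes called higher and 0.253% lower. Of 16 suppressor molecules 3 rose and none fell (median 0.63), namely Ebi3, Pdcd1lg2 and Entpd1. Entpd1, the ectoenzyme CD39 that starts the conversion of extracellular ATP to adenosine, read 2.86, 2.68 and 2.73 in A384T and 1.73, 1.73 and 1.89 in I363V Treg cells. The groups were apart (difference 0.97 ± 0.14, adjusted p = 0.00256), and its 2 other probe sets differed by 0.73 and 0.70 without being called. Pdcd1lg2, the PD-1 ligand PD-L2, rose by 1.07 ± 0.16 (adjusted p = 0.00312). Of 27 effector and tissue Treg genes 2 rose and none fell (median 0.43). Prdm1, which encodes the repressor Blimp-1, read 0.59, 0.55 and 0.88 against -0.33, 0.07 and -0.86 (difference 1.04 ± 0.20, adjusted p = 0.0144). The groups were separate, with the lowest A384T array at 0.55 and the highest I363V array at 0.07, and the call was lost without A384T array 3 (adjusted p = 0.0843), I363V array 1 (0.0525) or I363V array 3 (0.0524). Of 20 costimulatory and coinhibitory receptors none was called, with a median of 0.37, and at the shares over all genes a list of 20 would often hold no call. The largest differences there were 0.98 for Tnfrsf1b (adjusted p = 0.32) and 0.97 for Tnfrsf4 (adjusted p = 0.0853), which encode the receptors TNFR2 and OX40. Tnfrsf4 passed the test when only the 6 arrays were fitted (adjusted p = 0.028) or arrays were weighted (0.024). Without I363V array 3 the median of the effector and tissue Treg list was 0.23.

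Among 22 chemokine and homing receptors 3 rose and 1 fell (median 0.31), beside 0.885% higher and 0.253% lower over all genes. Cxcr3, the receptor for interferon-induced chemokines on Th1-type cells, read 0.33, 0.47 and 0.55 in A384T and -1.17, -1.01 and -1.36 in I363V Treg cells. All A384T arrays stood above the Tconv mean and all I363V arrays below it (difference 1.63 ± 0.27, adjusted p = 0.00694). The 2 Tconv arrays read -0.34 and 0.34, so A384T array 1 lay within their range. Ccr6, the receptor for CCL20, read 2.58, 2.61 and 2.91 against 1.63, 1.49 and 1.40, without overlap (difference 1.19 ± 0.20, adjusted p = 0.00617). Gpr183, the oxysterol receptor EBI2, fell by 0.96 (SE 0.20, adjusted p = 0.0343), and its adjusted p lay between 0.0828 and 0.154 without any one of A384T arrays 1 and 2 and I363V arrays 1, 2 and 3. Itgae was the other called receptor.

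In the interleukin-2 receptor and STAT5 target list 3 of 16 rose and none fell (median 0.51), Socs2, Il2ra and Il10ra. Over all genes 0.885% were called higher and 0.253% lower. Il10ra, the ligand-binding chain of the interleukin-10 receptor, read 1.72, 1.79 and 1.63 in A384T and 0.36, 0.13 and 0.45 in I363V Treg cells (difference 1.40 ± 0.13, adjusted p = 5.97e-05). The groups did not overlap on that probe set, while 2 other probe sets differed by 0.32 and 0.01. T helper cytokine genes had 2 of 14 members called, both lower (median -0.06), Il2 and Il21. Il21, a cytokine of follicular helper cells, read -2.09, -2.27 and -2.34 against -1.05, -0.50 and -1.11, below Tconv in both groups and lower in A384T (difference -1.35 ± 0.23, adjusted p = 0.00885), while a second probe set differed by -0.13 and was not called. Of 10 follicular helper genes 1 rose, Tox2, an HMG-box factor (1.69 ± 0.27, adjusted p = 0.00487, with a second probe set at -0.02), and 1 fell, Il21. One of 8 Th1 genes (Cxcr3) and 1 of 5 Th17 genes (Ccr6) rose. None of 8 Th2 genes or 16 naive T cell and quiescence genes was called, as would often happen at the shares over all genes.

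Early activation genes did not pass the test. None of 14 AP-1 family genes and none of 18 T cell receptor and NF-kB early response genes was called, with median differences of -0.33 and -0.20. With 0.885% of all genes called higher and 0.253% lower, lists this short would often hold no call. I363V array 2 stood apart here. Fosb, an AP-1 subunit, read 2.51, 2.59 and 2.65 in A384T and 2.70, 6.01 and 1.76 in I363V Treg cells, and Nr4a2, an orphan nuclear receptor induced by T cell receptor signals, read 0.87, 0.80 and 1.06 against 1.81, 4.88 and 1.39. Without I363V array 2 the list medians were -0.08 and 0.12, so the second changed sign. Without I363V array 1 Tnfaip3, an inhibitor of NF-kB signalling, passed the test, with a difference of -1.81 (adjusted p = 0.015) beside -1.26 with all arrays. What set I363V array 2 apart was not tested. Its part in the calls is shown by the counts without it, 128 higher and 29 lower.

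Several further programmes held few or no calls. Over all genes 0.885% were called higher and 0.253% lower, so lists of their length would often hold none. Slc2a3, the glucose transporter GLUT3, read 1.64, 1.66 and 1.66 in A384T and 0.30, 0.36 and 0.25 in I363V Treg cells. Spread within each group was small against the gap (difference 1.35 ± 0.13, adjusted p = 5.97e-05), and it was the only called gene among 12 glycolysis genes (median -0.01). Of its 3 other probe sets, 1 was called at 1.36 and 2 were not, at 0.40 and 0.09. Of 19 cyclic nucleotide and adenosine genes Entpd1 rose and Vipr1, a receptor for vasoactive intestinal peptide, fell by 0.69 (SE 0.13, adjusted p = 0.0128). Vipr1 lost its call without A384T array 1 or 2 or I363V array 1 or 3, with adjusted p up to 0.0679, and the mean of its probe sets differed by -0.32 (adjusted p = 0.197). No member was called among 24 cell cycle genes (median -0.22), 13 type I interferon response genes (-0.31), 12 heat shock genes (-0.36), 12 cholesterol genes (-0.18), 12 dual-specificity phosphatase and Sprouty genes (-0.13) or 12 RGS genes (0.14). These medians moved with single arrays. Leaving out each of the 6 in turn, the cell cycle median ran between -0.37 (without A384T array 2) and -0.11 (without I363V array 2), the interferon median between -0.45 (without I363V array 2) and -0.08 (without I363V array 1) and the heat shock median between -0.50 and -0.27. The cholesterol median ran between -0.29 (without A384T array 3) and -0.04 (without A384T array 1), the phosphatase and Sprouty median between -0.23 (without I363V array 3) and 0.08 (without I363V array 2) and the RGS median between 0.02 (without I363V array 3) and 0.17. In the cholesterol list Stard4, a sterol carrier, differed by -0.94 (adjusted p = 0.0545) and was called lower without I363V array 1 (adjusted p = 0.0443), with the mean of probe sets (0.044) and with array weights (0.0218).

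**Figure D4:**
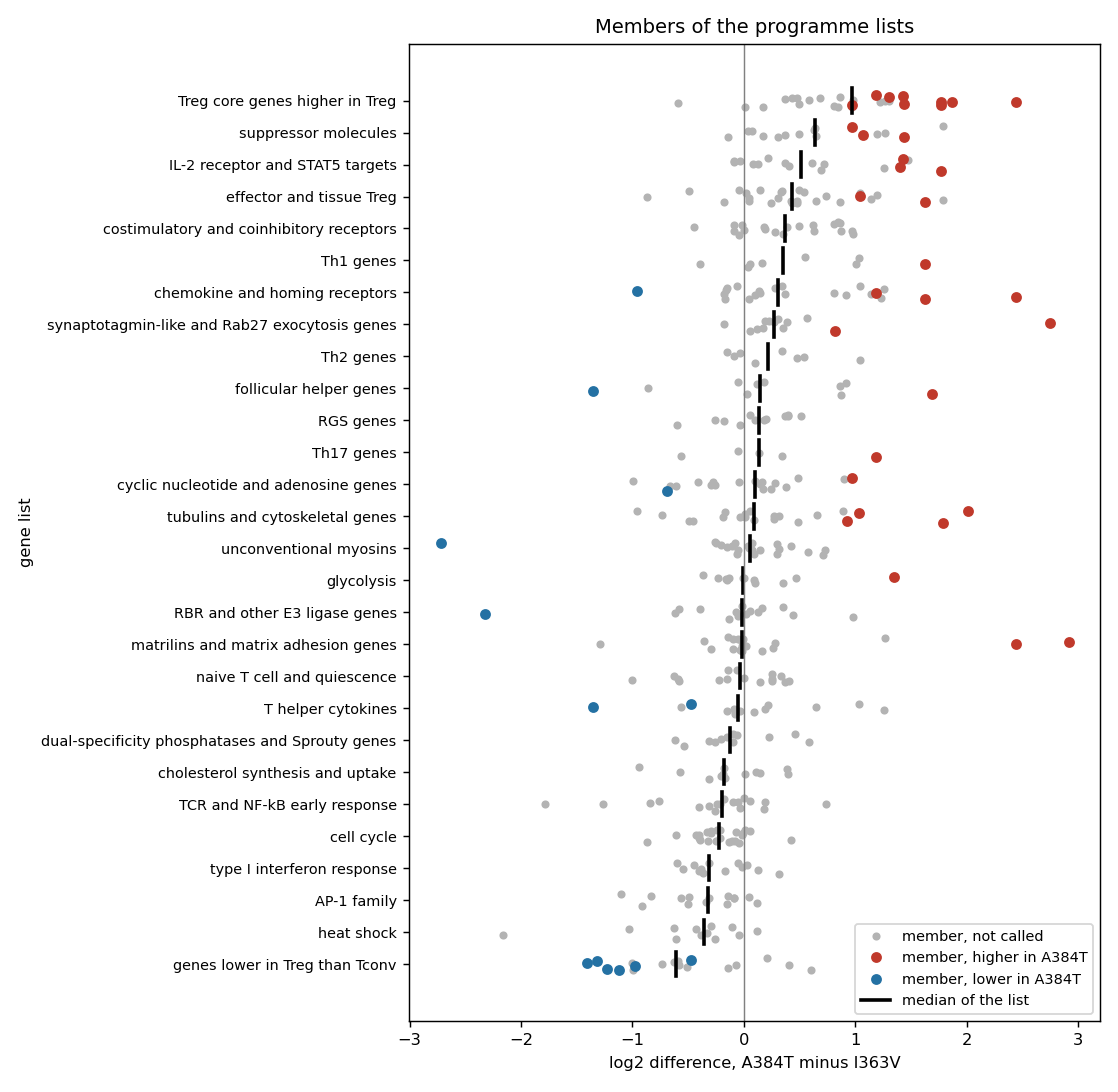
Each row is 1 of 28 gene lists and each point 1 measured member, placed by its log2 difference A384T minus I363V, with called members coloured and the list median as a black bar. Treg core genes have the most positive median, 0.97, and genes lower in Treg than Tconv cells the most negative, -0.61.

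Markers of other cell types were examined because a sorted population can hold some. Of 9 B cell markers 1 was called, Cd22, an inhibitory B cell receptor, at -0.01, 0.41 and -0.00 in A384T and -1.23, -0.86 and -1.08 in I363V Treg cells (difference 1.18 ± 0.20, adjusted p = 0.00761). A second Cd22 probe set differed by 0.26 and was not called. The Cd22 call was lost without A384T array 2 (adjusted p = 0.0518), and the median of the B cell list was 0.07 with that array and -0.06 without it. No marker was called among 12 of myeloid cells, 8 of neutrophils, 8 of dendritic cells, 9 of CD8 T and NK cells, 5 of erythroid cells, 10 of stromal and endothelial cells and 9 of T cell identity. Such short lists would often hold no call at the shares over all genes, 0.885% higher and 0.253% lower. The median over the neutrophil markers was -0.23, 1.37 and -0.74 on the A384T arrays and 0.04, 0.16 and -0.31 on the I363V arrays. Of these, A384T array 2 was the high one. The wild-type GFP+ arrays of the A384T mice read -0.10, 1.90 and -0.32, so their array 2 was high as well. The median difference of the neutrophil list was 0.05, and -0.48 without A384T array 2. Without it 92 genes were higher and 25 lower. The median over the myeloid markers was -1.04, -0.11 and -0.76 in A384T and -0.48, -0.22 and -0.41 in I363V Treg cells, and the median difference was -0.09, and -0.32 without A384T array 2. As the values are centred on Tconv, they do not show whether a marker was above background.

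Promoters were inspected for called genes that the rule for named genes chose. Each stretch below is the 250 bases before the RefSeq start of a gene on mouse assembly GRCm38.p6, 5′ to 3′ on the strand of the gene. Capitals mark matches, on either strand, to the forkhead motif TGTTTAC, the AP-1 motif TGANTCA or the STAT5 motif TTCNNNGAA, and no matches overlap in the stretches shown. Sytl4 (chrX:133981813-133982062, minus strand) is shown as the sharpest difference, Prdm1 (chr10:44458749-44458998, minus strand) because it holds a forkhead match, Ccr6 (chr17:8235793-8236042, plus strand) because it holds more than one match and Atp8b4 (chr2:126491554-126491803, minus strand) as a lower gene.
Sytl4: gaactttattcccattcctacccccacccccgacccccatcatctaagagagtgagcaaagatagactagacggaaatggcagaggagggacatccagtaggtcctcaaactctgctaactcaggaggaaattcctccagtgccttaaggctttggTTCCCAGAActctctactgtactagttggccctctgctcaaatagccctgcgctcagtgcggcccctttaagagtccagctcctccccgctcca
Prdm1: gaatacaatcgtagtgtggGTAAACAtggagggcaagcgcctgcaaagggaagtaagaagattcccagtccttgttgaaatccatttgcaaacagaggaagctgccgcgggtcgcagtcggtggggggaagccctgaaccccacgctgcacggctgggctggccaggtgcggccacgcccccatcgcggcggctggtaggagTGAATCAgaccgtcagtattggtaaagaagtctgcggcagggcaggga
Ccr6: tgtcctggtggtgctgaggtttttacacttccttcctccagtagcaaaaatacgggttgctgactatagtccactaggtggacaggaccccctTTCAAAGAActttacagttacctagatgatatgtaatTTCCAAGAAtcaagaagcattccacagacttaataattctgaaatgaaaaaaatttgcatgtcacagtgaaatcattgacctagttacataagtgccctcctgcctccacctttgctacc
Atp8b4: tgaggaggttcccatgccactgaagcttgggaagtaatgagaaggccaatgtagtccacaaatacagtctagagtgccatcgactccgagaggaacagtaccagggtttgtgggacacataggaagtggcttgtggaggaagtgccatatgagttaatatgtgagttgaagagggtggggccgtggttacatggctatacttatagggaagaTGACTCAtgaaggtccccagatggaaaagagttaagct

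In these stretches the STAT5 match of Sytl4 began 94 bases before the start, the forkhead and AP-1 matches of Prdm1 231 and 48 bases before it, the STAT5 matches of Ccr6 157 and 120 bases before it and the AP-1 match of Atp8b4 38 bases before it. Promoters were at hand for 122 of the 161 higher genes, 37 of the 46 lower genes and 14368 of all measured genes. The forkhead motif was in 3.28% of promoters of higher genes, in none of those of lower genes and in 2.49% of all. The AP-1 motif was in 5.74%, 2.7% and 5.55% in that order, and the STAT5 motif in 7.38%, 2.7% and 6.3%. These shares describe letters in a window and say nothing of binding.

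The called genes were then read on arrays outside the A384T and I363V groups, which entered only the shared estimate of spread and the choice of probe sets. In wild-type Treg cells against Tconv, 3.81% of all genes were called higher and 2.03% lower. Of the 161 genes higher in A384T than in I363V, 111 were higher in wild-type Treg cells and 1 was lower, with a median of 1.07, beside -0.01 for all genes. Of the 46 lower genes, 4 were higher and 30 lower in wild-type Treg cells, with a median of -1.10. Il2ra differed there by 5.34 ± 0.17, Itgae by 4.59 ± 0.22 and Atp8b4 by -4.71 ± 0.20. Sytl4 (0.46 ± 0.17, adjusted p = 0.166) and Rnf144a (-0.26 ± 0.26, adjusted p = 0.728) were not called there, and Myo6 was higher in wild-type Treg cells, by 1.0 ± 0.25 (adjusted p = 0.0253), though lower in A384T than in I363V.

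**Figure D5:**
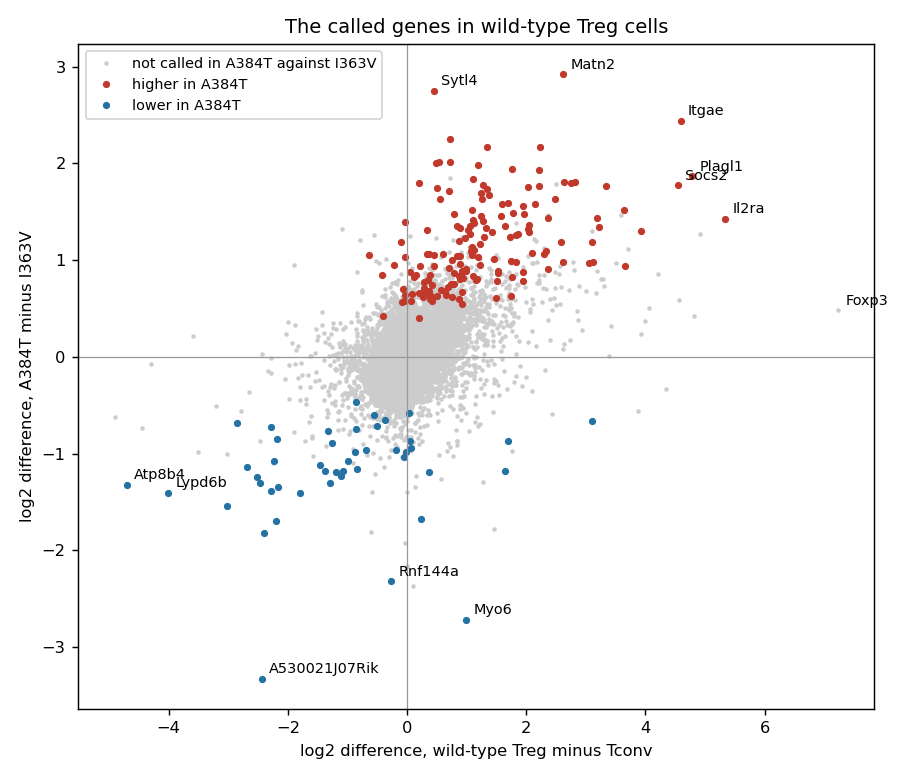
Each point is 1 gene, with the log2 difference between wild-type Treg and Tconv cells on the x axis and the difference A384T minus I363V on the y axis. Most genes called higher in A384T (red) lie right of 0, 111 of 161 being called higher in wild-type Treg cells, and most called lower (blue) lie left of it, 30 of 46 being called lower.

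Comparison with wild-type hCD2+ Treg cells places each mutant on the same scale. These contrasts share arrays with the one between the mutants and are given side by side only. Over all genes, 0.137% were called higher and 0.143% lower in A384T than in wild-type hCD2+ Treg cells, and 0.231% higher and 0.682% lower in I363V. The 161 higher genes had a median difference from wild type of 0.45 in A384T and -0.67 in I363V, and the 46 lower genes of -0.28 in A384T and 0.82 in I363V. Itgae differed from wild type by 0.16 ± 0.23 in A384T (adjusted p = 0.905) and by -2.28 ± 0.23 in I363V (adjusted p = 0.000269). A530021J07Rik differed by -0.03 ± 0.48 in A384T and by 3.30 ± 0.48 in I363V, and Lypd6b by 0.91 ± 0.24 (adjusted p = 0.197) and 2.32 ± 0.24 (adjusted p = 0.000288).

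Other genes stood apart in A384T. Sytl4 differed from wild type by 2.43 ± 0.18 in A384T (adjusted p = 2.12e-05) and by -0.32 ± 0.18 in I363V (adjusted p = 0.678). Enah differed by 1.71 ± 0.19 in A384T (adjusted p = 0.00123) and by -0.30 ± 0.19 in I363V (adjusted p = 0.723), Ryr2 by 1.95 ± 0.23 and 0.12 ± 0.23, and Tubb2b by 1.66 ± 0.23 and -0.13 ± 0.23. Myo6 lay between the mutants in wild-type cells, at 1.14 and 0.49, and differed by -1.65 ± 0.26 in A384T (adjusted p = 0.0133) and by 1.07 ± 0.26 in I363V (adjusted p = 0.08). Rnf144a likewise differed by -1.50 ± 0.28 in A384T (adjusted p = 0.0352) and by 0.82 ± 0.28 in I363V (adjusted p = 0.291).

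R397W Treg cells offered a further substitution. Over all genes 0.0824% (15 genes) differed between R397W and I363V Treg cells in either direction. Of the 161 higher genes none was called in that contrast, which shares the I363V arrays, and 1 of the 46 lower genes was, Mettl23 (-1.91 ± 0.26, adjusted p = 0.012). Against wild-type hCD2+ Treg cells, which share no array with the A384T and I363V groups, R397W Treg cells had 0.715% of genes higher and 1.55% lower. Of the 161 genes, 1 was higher and 73 were lower in R397W, with a median of -0.75. Of the 46 genes, 21 were higher and 1 was lower, with a median of 0.66. Matn2 read 0.68, 1.0 and -0.58 on the R397W arrays, against 2.60 and 2.48 on the wild-type hCD2+ arrays, and Itgae 1.66, 1.44 and 1.92 against 4.47 and 4.85.

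For the mouse of origin, wild-type cells that had lived beside A384T cells were examined. Wild-type GFP+ Treg cells of the A384T mice and wild-type GFP+ Treg cells of wild-type mice differed at 0 genes in the limma fit (smallest adjusted p = 1), with 317 genes higher and 156 lower at an unadjusted p under 0.05. Without any difference, a share of about 0.05 of all genes would pass that unadjusted threshold, both directions together. Over the 161 higher genes the median difference between these wild-type groups was 0.16, with 127 positive, beside 0.01 and 9787 of 18193 over all genes. Over the 46 lower genes it was -0.03. Sytl4 differed between those groups by 0.19 ± 0.18, Matn2 by 0.42 ± 0.37, Myo6 by -0.24 ± 0.26 and Rnf144a by -0.40 ± 0.28. Larger for their SE were Tubb2b at -1.16 ± 0.23, Il10ra at 0.58 ± 0.15, Ryr2 at 0.78 ± 0.23 and Tox2 at 0.72 ± 0.30, none of them called. Between A384T and I363V those 4 differed by 1.79, 1.40, 1.84 and 1.69 in that order. The part of the mouse of origin in the differences between A384T and I363V cannot be told apart from that of the allele.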

How the data were processed

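The deposited values were log2 expression values from Affymetrix mouse arrays, summarised with RMA per the submitters' processing notes. RNA was labelled with a two-cycle amplification kit, per the labels' protocols. The deposited log2 values of the Tconv arrays sum to 0 for each probe set, so levels are lost. Of 45101 probe sets, 34945 were assigned to exactly 1 gene, 932 to several and 9160 to none, and 64 were controls. Each of 18193 genes was represented by its probe set of largest variance over the 18 arrays, a choice that favours large differences. All 18 arrays in 7 groups were fitted with limma 3.58.1 in R 4.3.3 (group means, 11 residual degrees of freedom, Benjamini-Hochberg adjustment over all genes). The fit treated all arrays as independent. In wild-type mice the hCD2+ and GFP+ arrays varied together for some genes. Ttn read 1.99 and 3.22 on the hCD2+ arrays and 1.78 and 3.57 on the GFP+ arrays, and Fosb 1.84 and -0.03 against 1.65 and -0.08. In A384T mice the A384T and wild-type GFP+ arrays of equal number also varied together for some genes. Nkg7 read 0.78, 1.74 and 0.96 on the A384T arrays and -0.20, 0.80 and 0.05 on those GFP+ arrays. Where arrays vary together, the degrees of freedom and the p-values overstate the precision. The fit was checked on simulated data with independent arrays, which does not cover this. The wild-type Treg mean against Tconv used the hCD2+ and GFP+ cells of wild-type mice, whose arrays varied together for some genes. Named were the 15 most positive and 15 most negative called differences without overlap, Foxp3, Batf, Matn2, Sytl4, Myo6 and Rnf144a, up to 6 called members per gene list (up to 2 members where none was called) and called genes in R397W against I363V. The members and lists were chosen with earlier results of these data known. The number of arrays limits the precision. Alternatives changed the arrays in the fit, the pairing, the probe set, centring, variance moderation and array weights, and left out each array in turn.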

Additional observations from a re-analysis of the deposited data

How the results depend on the processing

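Of the called genes chosen by the rule for named genes, none changed direction in fits with 1 value per gene. Single probe sets of Mettl23, Ryr2, Enah, Ttn and Vipr1, among others, had the opposite sign to the one used. The medians of 13 of 36 gene lists changed sign when 1 array was left out. Counts of genes higher and lower in A384T, 161 and 46 with all 18 arrays, were 112 and 36 with the 6 arrays alone, 162 and 43 after centring arrays, 157 and 44 with robust moderation, 193 and 69 with the mean of probe sets, 251 and 104 with array weights and 218 and 80 among single probe sets. Leaving out 1 array of either group gave 92 to 128 higher and 21 to 33 lower genes, and 22 of the 30 most different genes were called in each of those fits. With the wild-type GFP+ arrays of A384T mice left out, chosen after seeing the data because they vary with the A384T arrays of equal number, the counts were 127 and 36. A replicate block on the 6 arrays called 23 higher and 6 lower genes, with 16 of the 30 among them. The replicate numbers did not pair the samples (correlations of deviations -0.316, 0.072 and -0.062), and the block leaves fewer degrees of freedom. Quantile normalization and a filter on dim probe sets were not run, as the deposited values are not levels.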

Other observations

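Further called genes, chosen after their values were seen, extend the description. Among the sharpest differences for their spread was Ddc, the aromatic amino acid decarboxylase, at 1.81, 1.79 and 2.09 in A384T and 0.10, 0.10 and 0.27 in I363V Treg cells (1.74 ± 0.11, adjusted p = 9.89e-07). Flicr, a noncoding RNA gene next to Foxp3, differed by 0.79 ± 0.11 (adjusted p = 0.0022). Axl, a receptor tyrosine kinase, and Pros1, one of the ligands of its family, were both higher, by 1.76 ± 0.25 and 1.33 ± 0.12. Lamc1, a laminin chain, rose by 1.48 ± 0.16 and Bmp7, a bone morphogenetic protein, by 1.48 ± 0.33. Wnt10a, a Wnt ligand, rose by 1.06 ± 0.15.

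Survival genes Bcl2l1 (Bcl-xL), Bcl2l2 (Bcl-w) and Traf1 rose by 0.76 ± 0.16, 0.59 ± 0.08 and 0.55 ± 0.10, without a second called probe set for any of the 3. Of sialyltransferases, St3gal2 was higher (0.86 ± 0.19) and St3gal6 lower (-1.07 ± 0.19). Cd86, a costimulatory ligand, read 0.17, 0.49 and 0.53 in A384T and 1.73, 1.57 and 1.42 in I363V Treg cells (-1.18 ± 0.15, adjusted p = 0.000723), with a second probe set also called lower. These genes were picked from the called ones, so their directions support nothing beyond each call.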
